A study of Mus musculus with 9 samples.

Results

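The genes described here are 31 genes known as markers of microglia and macrophages, the resident and border immune cells of the brain, taken by name from the deposited table of 49585 genes. The table held 30 of the 31 under their own symbols, and 27 of these had enough reads to be tested. Itgam, which encodes the CD11b chain of complement receptor 3, had no row of that name, and a row named Itgam_1 that carries its Ensembl identifier is given apart from the 30. The values came from bulk RNA sequencing of 9 libraries, 3 in each of 3 groups of male wild type C57BL/6J mice aged 8 to 15 weeks. CTRL mice moved freely for 120 min without sevoflurane, a volatile anesthetic. 0.7 MAC mice breathed sevoflurane at 0.7 MAC (minimum alveolar concentration, a unit of anesthetic dose) for 120 min in 100% oxygen, and 2.0 MAC mice breathed 2.0 MAC for 30 min and then 0.7 MAC for 90 min in 100% oxygen. The study used these groups to ask how a dose of sevoflurane that brings on gasping changes the transcripts of the hypothalamus.

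Mice of every group, CTRL included, were perfused with cold buffer to remove blood cells before the brain was taken. The labels name the tissue hypothalamus, the methods describe the part of the brain left after removal of the cortex, cerebellum and olfactory bulb, and the extraction text names whole brain. The sources do not say whether each library came from its own mouse, so p-values reflect library to library spread, which may be technical. The 3 comparisons share libraries with each other and are not independent of each other.

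Microglia survive through the receptor Csf1r, which binds the growth factors Csf1 and Il34, and they watch neurons and blood through surface receptors such as Cx3cr1, which binds the neuronal chemokine Cx3cl1, and the purine receptors P2ry12 and P2ry13. The transcription factors Spi1 (PU.1), Irf8 and Sall1 set their identity, Trem2 and Tyrobp signal during phagocytosis, and the C1q chains form the first component of the complement cascade. Tlr2 recognizes microbial lipoproteins and passes its signal to NF-kB. Mrc1 and Cd163 mark the macrophages at the borders of the brain more than microglia of the tissue itself.

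Promoter sequences are shown for Ctss, the highest of these genes per length and a carrier of the motif bound by PU.1, and for Cx3cr1, Sall1 and Tlr2, the genes that passed a test. Each window is 270 bases long, starts 250 bases before the RefSeq start of transcription on build GRCm38.p6, reads 5′ to 3′ on the strand of the gene, and has every match to the PU.1 motif GAGGAA, its longer form GAGGAAGT or the ETS-IRF motif GGAANNGAA, on either strand, in capitals. The window of Ctss is chr3:95526536-95526805 on the plus strand, that of Cx3cr1 is chr9:120068277-120068546 on the minus strand, that of Sall1 is chr8:89044143-89044412 on the minus strand and that of Tlr2 is chr3:83841589-83841858 on the minus strand.
Ctss: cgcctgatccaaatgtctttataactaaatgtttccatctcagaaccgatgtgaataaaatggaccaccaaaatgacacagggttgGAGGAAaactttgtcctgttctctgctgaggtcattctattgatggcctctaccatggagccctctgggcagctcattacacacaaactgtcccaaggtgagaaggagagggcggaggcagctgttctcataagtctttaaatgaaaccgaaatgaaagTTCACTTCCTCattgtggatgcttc
Cx3cr1: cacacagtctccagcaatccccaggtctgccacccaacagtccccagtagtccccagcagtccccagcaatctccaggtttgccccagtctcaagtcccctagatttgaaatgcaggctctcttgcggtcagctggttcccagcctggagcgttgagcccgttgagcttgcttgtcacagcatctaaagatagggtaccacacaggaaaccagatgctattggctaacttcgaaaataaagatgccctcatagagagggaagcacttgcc
Sall1: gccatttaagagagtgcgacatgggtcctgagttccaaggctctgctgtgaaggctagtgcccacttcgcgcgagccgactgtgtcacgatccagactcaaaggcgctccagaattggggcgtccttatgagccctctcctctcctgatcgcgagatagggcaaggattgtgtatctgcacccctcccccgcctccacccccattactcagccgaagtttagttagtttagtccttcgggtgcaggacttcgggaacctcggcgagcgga
Tlr2: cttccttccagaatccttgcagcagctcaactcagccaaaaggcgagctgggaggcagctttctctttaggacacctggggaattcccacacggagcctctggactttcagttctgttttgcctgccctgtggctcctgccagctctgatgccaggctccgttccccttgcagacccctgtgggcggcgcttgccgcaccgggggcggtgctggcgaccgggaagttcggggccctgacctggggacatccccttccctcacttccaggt
The Ctss window held the long PU.1 motif, a separate short one and the ETS-IRF motif, and the first and last of these overlap. The windows of Cx3cr1, Sall1 and Tlr2 held none of the 3 motifs in these letters. RefSeq windows of 300 bases were matched for 24 of the 31 genes, with 29 windows in all. GAGGAA was found in 16 of the 29 windows (55.2%) and in 28.3% of 32851 windows of all genes, GAGGAAGT in 3 (10.3%, in C1qc, Cd53 and Ctss) against 3.2%, and GGAANNGAA in 2 (6.9%, in Cd68 and Ctss) against 8.24%. GAGGAA is part of GAGGAAGT, so the counts of these 2 motifs overlap. A match is a run of letters and not a measured binding site.

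The libraries held 5321491 to 7178568 exon-based reads, the count used for the tests, and each of the 30 genes had at least 1 read in every library. Microglial transcripts were present at low level. Per length of transcript, in RPKM (reads scaled to exon length and to the library total, with all exon reads of a gene), the mean over the 9 libraries ran between 9.44 for Ctss and 0.158 for Spi1. The order from the top was Ctss, C1qb, C1qa, Csf1r, P2ry12, Cx3cr1, C1qc and Tyrobp. The median spread of a gene within a group was 14.0% of its mean, so C1qb at 6.46 and C1qa at 5.56, or Cx3cr1 at 2.52 and C1qc at 2.51, stood closer than that spread or near it. The lowest levels were those of Tlr2, Irf8, Cd163, Ptprc and Spi1, all under 0.221 RPKM.

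**Figure D1:**
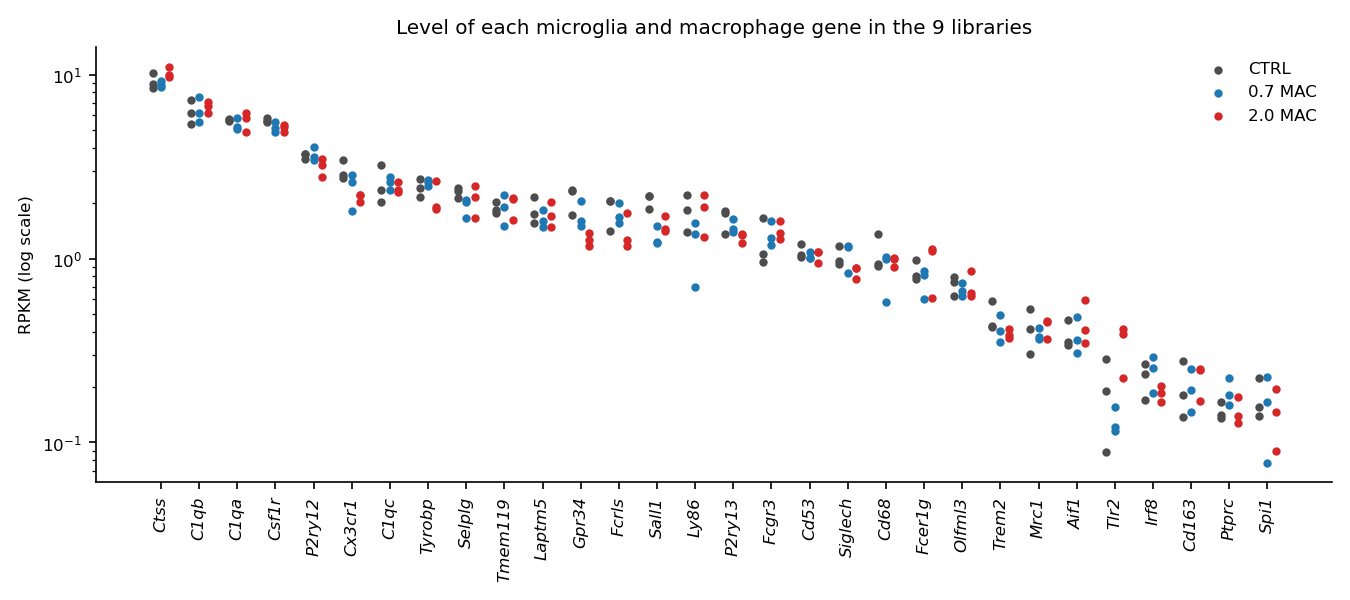
Level of the 30 genes in RPKM on a log axis, in the order of their mean, with 1 point per library and the groups in gray (CTRL), blue (0.7 MAC) and red (2.0 MAC). Ctss stood highest at 9.44 RPKM and Spi1 lowest at 0.158, and the points of the 3 groups overlapped for most genes.

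The highest genes were near level between the groups. Ctss, a lysosomal protease of microglia, had 10.3, 8.89 and 8.43 RPKM in CTRL libraries, 9.25, 8.61 and 8.75 RPKM in 0.7 MAC libraries, and 11.0, 9.97 and 9.74 RPKM in 2.0 MAC libraries. C1qb had 7.29, 5.38 and 6.17 RPKM in CTRL libraries, 6.16, 5.54 and 7.57 RPKM in 0.7 MAC libraries, and 6.73, 6.20 and 7.06 RPKM in 2.0 MAC libraries. C1qa had 5.72, 5.68 and 5.63 RPKM in CTRL libraries, 5.81, 5.09 and 5.18 RPKM in 0.7 MAC libraries, and 6.16, 4.90 and 5.85 RPKM in 2.0 MAC libraries. For the 2 complement genes the groups overlapped throughout, and for Ctss the 2.0 MAC libraries lay above the 0.7 MAC libraries but not above CTRL. Csf1r, the receptor on which microglia depend, had 5.79, 5.53 and 5.57 RPKM in CTRL libraries, 5.10, 4.91 and 5.51 RPKM in 0.7 MAC libraries, and 5.32, 5.21 and 4.87 RPKM in 2.0 MAC libraries. P2ry12, the purine receptor of resting microglia, had 3.68, 3.47 and 3.68 RPKM in CTRL libraries, 4.02, 3.42 and 3.55 RPKM in 0.7 MAC libraries, and 3.24, 3.47 and 2.77 RPKM in 2.0 MAC libraries. In Csf1r every 2.0 MAC library lay below every CTRL library, while P2ry12 overlapped.

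Few of the 27 tested genes changed. The test was edgeR's quasi-likelihood test on exon-based reads with p-values adjusted by Benjamini-Hochberg over the 14140 tested genes, and a gene was called at an adjusted p under 0.05. In 2.0 MAC against 0.7 MAC, 1 of the 27 rose (Tlr2), where 5.98% of all tested genes did, and 0 fell, where 8.73% of all genes did. In 0.7 MAC against CTRL, 0 rose (0.884% of all genes) and 1 fell (Sall1, 0.743% of all genes). For 2.0 MAC against CTRL, 0 rose (3.36% of all genes) and 2 fell (Cx3cr1 and Sall1, 6.42% of all genes). At an unadjusted p under 0.05, 1 was higher and 2 lower in 2.0 MAC against 0.7 MAC, 0 and 2 in 0.7 MAC against CTRL, and 0 and 4 in 2.0 MAC against CTRL. Of all tested genes, 26.7%, 15.5% and 22.7% had such a p in these comparisons, both directions together. DESeq2 called 0 genes in 2.0 MAC against 0.7 MAC, without an adjusted p for Tlr2, and made the other 3 calls (Sall1 in 0.7 MAC against CTRL, Cx3cr1 and Sall1 in 2.0 MAC against CTRL) with 0 higher genes in both. With limma on log2(RPKM + 0.1) none of these calls of Tlr2, Sall1 and Cx3cr1 passed (adjusted p between 0.0507 and 0.12). With a fold of at least 2 also required, 1 gene was higher (Tlr2, 0.127% of all genes) and 0 lower (1.32%) in 2.0 MAC against 0.7 MAC, 0 higher (0.276%) and 0 lower (0.0495%) in 0.7 MAC against CTRL, and 0 higher (0.382%) and 0 lower (0.976%) in 2.0 MAC against CTRL. In bulk tissue, fewer microglia and less RNA per microglial cell cannot be told apart.

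The genes as a list lay slightly to the lower side. Of the 27, 20 had a negative log2 fold change in 2.0 MAC against CTRL (74.1%, against 49.6% of all tested genes), with a median of -0.12 beside 0.00 for all genes. In 0.7 MAC against CTRL, 18 were negative (66.7%, against 50.8%), with a median of -0.06. The number was 16 in 2.0 MAC against 0.7 MAC (59.3%, against 49.3%), with a median of -0.04. These shares are descriptions of a list of genes from the same cells and were given no test. Standard errors of the log2 fold changes ran between 0.0693 and 0.473. The groups did not overlap for 2 genes higher and 2 lower in 2.0 MAC against 0.7 MAC (14.9% and 16.4% of all genes), for 1 higher and 3 lower in 0.7 MAC against CTRL (8.8% and 9.25%), and for 0 higher and 5 lower in 2.0 MAC against CTRL (13.1% and 15.2%). The 5 were Csf1r, Cx3cr1, Sall1, Siglech and Trem2.

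**Figure D2:**
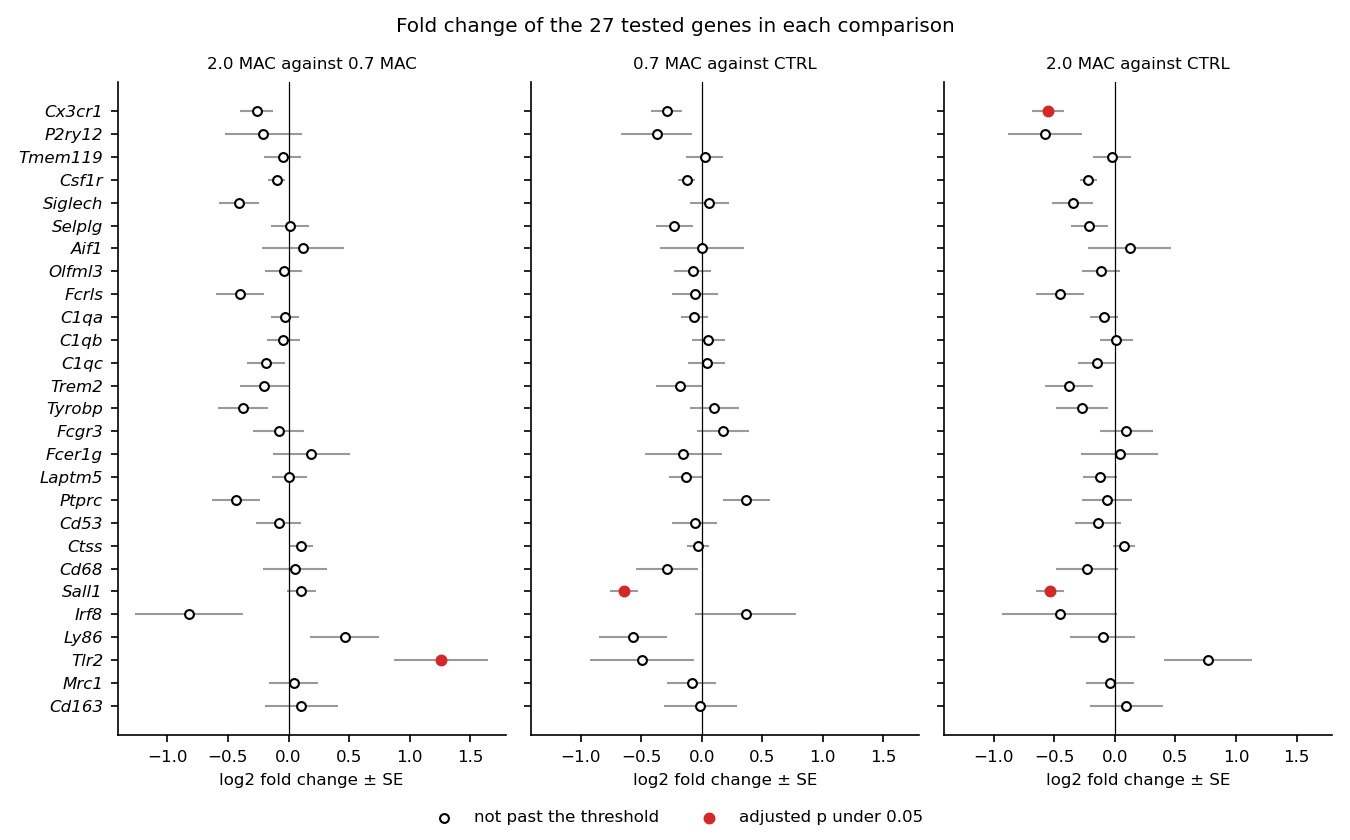
Log2 fold change of the 27 tested genes, with bars of 1 standard error, in the 3 comparisons, from edgeR on exon-based reads. Red points passed an adjusted p of 0.05, which were Tlr2 in 2.0 MAC against 0.7 MAC, Sall1 in 0.7 MAC against CTRL, and Cx3cr1 and Sall1 in 2.0 MAC against CTRL.

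Among the receptors of the microglial surface, Cx3cr1 fell in 2.0 MAC against CTRL. Cx3cr1 (ENSMUSG00000052336, chromosome 9) had 47.3, 37.1 and 37.3 normalized CPM (exon-based reads scaled to the library total with TMM factors) in CTRL libraries, 34.7, 25.4 and 39.1 in 0.7 MAC libraries, and 25.8, 28.4 and 28.4 in 2.0 MAC libraries. All 2.0 MAC libraries lay below all CTRL libraries, and the 0.7 MAC libraries overlapped both. The mean was 27.5 ± 1.53 CPM in 2.0 MAC and 40.6 ± 5.83 CPM in CTRL libraries (SD, n = 3 each), a log2 fold change of -0.55 (SE 0.13, adjusted p = 0.0154), or 31.9% lower. In 2.0 MAC against 0.7 MAC the log2 fold change was -0.26 (SE 0.14, adjusted p = 0.237), and in 0.7 MAC against CTRL it was -0.29 (SE 0.13, adjusted p = 0.296). The call against CTRL was lost without 2.0 MAC 1 (adjusted p = 0.0655) and without CTRL 1 (adjusted p = 0.0914), and without 0.7 MAC 2 the fall against 0.7 MAC passed (log2 fold change -0.41, adjusted p = 0.0304). Over a count of introns and exons together (total gene reads) the log2 fold change against CTRL was -0.36 (adjusted p = 0.0932). Intron reads made up 59.1% of the gene reads of Cx3cr1 in 2.0 MAC libraries and 54.2% in CTRL libraries.

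Csf1r moved in the same direction by less. It had 72.3, 71.5 and 67.1 normalized CPM in 2.0 MAC libraries, against 86.5, 80.4 and 78.7 CPM in CTRL libraries, with 71.6, 73.9 and 80.0 CPM in 0.7 MAC libraries. The 2.0 MAC and CTRL groups did not overlap. The log2 fold change was -0.22 in 2.0 MAC against CTRL (SE 0.07, adjusted p = 0.0589), -0.12 in 0.7 MAC against CTRL (adjusted p = 0.426) and -0.10 in 2.0 MAC against 0.7 MAC (adjusted p = 0.424). The first of these passed without 0.7 MAC 3 (adjusted p = 0.0411). Siglech, a lectin receptor of microglia, had a log2 fold change of -0.41 in 2.0 MAC against 0.7 MAC (SE 0.17, adjusted p = 0.123) and of -0.35 in 2.0 MAC against CTRL (SE 0.17, adjusted p = 0.236), and its 2.0 MAC libraries lay below those of both other groups. Over the 6 tested surface receptors, Tmem119 and Selplg (the P-selectin ligand) included, 1 fell in 2.0 MAC against CTRL (6.42% of all genes did). The log2 fold changes there ran between -0.58 and -0.03.

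**Figure D3:**
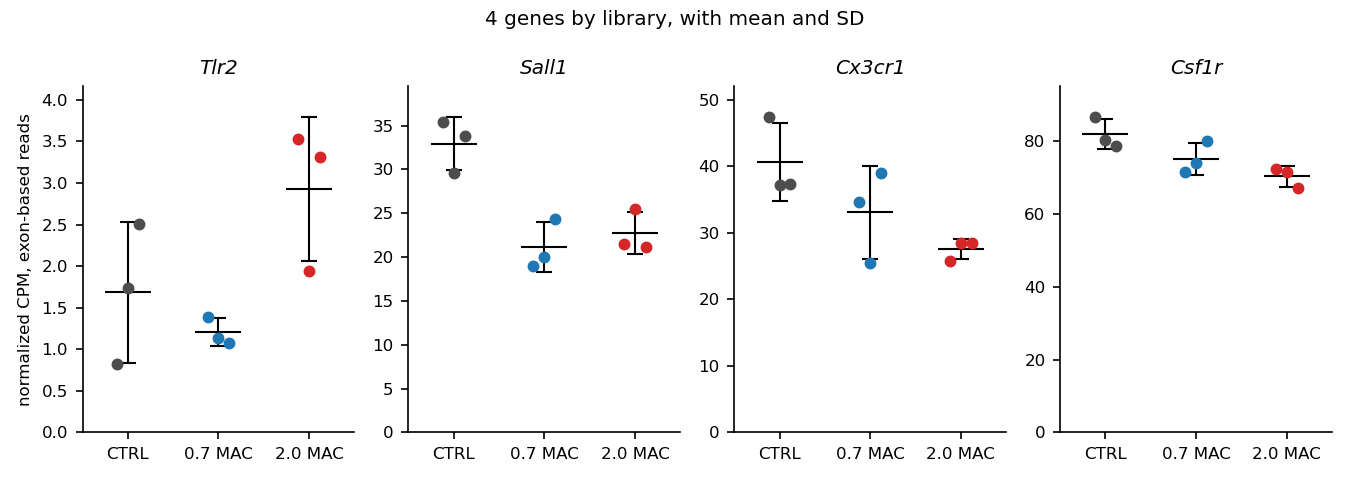
Normalized CPM of Tlr2, Sall1, Cx3cr1 and Csf1r in each library, with the mean and SD of each group as a black line and bar. Tlr2 was highest in 2.0 MAC at a mean of 2.93 CPM, Sall1 was lower in every sevoflurane library than in every CTRL library, and Cx3cr1 and Csf1r had their lowest means in 2.0 MAC.

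Of the transcription factors, Sall1 fell at both doses. Sall1 (ENSMUSG00000031665, chromosome 8), a zinc finger factor that in the adult mouse brain marks microglia, had 35.4, 29.6 and 33.8 normalized CPM in CTRL libraries, 18.9, 20.1 and 24.4 CPM in 0.7 MAC libraries, and 21.5, 25.5 and 21.1 CPM in 2.0 MAC libraries. Every library with sevoflurane lay below every CTRL library, and the 2 doses overlapped. The log2 fold change was -0.64 in 0.7 MAC against CTRL (SE 0.11, adjusted p = 0.0107), or 35.9% lower, and -0.54 in 2.0 MAC against CTRL (SE 0.11, adjusted p = 0.00628), or 31.0% lower. Between the doses it was 0.11 (2.0 MAC against 0.7 MAC, SE 0.12, adjusted p = 0.637). The call in 0.7 MAC against CTRL was lost without 0.7 MAC 1 (adjusted p = 0.0664) and without CTRL 3 (adjusted p = 0.0666), while that in 2.0 MAC against CTRL was kept without each library in turn. Irf8, the interferon regulatory factor of the myeloid lineage, had 73 exon-based reads over the 9 libraries and a log2 fold change of -0.82 in 2.0 MAC against 0.7 MAC (SE 0.45, adjusted p = 0.263), or -0.50 with all exon reads (SE 0.24, adjusted p = 0.206). Spi1, also with 73 reads, reached the minimum for a test in too few libraries.

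Of the innate immune receptors, Tlr2 rose in 2.0 MAC against 0.7 MAC. Tlr2 (ENSMUSG00000027995, chromosome 3) had 5, 11 and 17 exon-based reads in CTRL libraries, 10, 7 and 7 reads in 0.7 MAC libraries, and 19, 12 and 24 reads in 2.0 MAC libraries. The normalized values were 0.819, 1.73 and 2.51 CPM in CTRL libraries, 1.39, 1.14 and 1.07 CPM in 0.7 MAC libraries, and 3.52, 1.94 and 3.31 CPM in 2.0 MAC libraries. The 2.0 MAC libraries lay above all 0.7 MAC libraries, and the CTRL libraries ran across both groups. The log2 fold change was 1.26 in 2.0 MAC against 0.7 MAC (SE 0.39, adjusted p = 0.0376), 0.77 in 2.0 MAC against CTRL (SE 0.36, adjusted p = 0.224) and -0.49 in 0.7 MAC against CTRL (SE 0.43, adjusted p = 0.644). The call rests on few reads. It was lost without 2.0 MAC 1 (adjusted p = 0.132), 2.0 MAC 3 (0.13), 0.7 MAC 1 (0.0717), 0.7 MAC 2 (0.0874) or 0.7 MAC 3 (0.0975). Ly86, which encodes MD-1, a partner of a Toll-like receptor homolog, had a log2 fold change of -0.10 in 2.0 MAC against CTRL (SE 0.27, adjusted p = 0.874).

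The remaining groups had no gene past the test. The 3 C1q chains, all on chromosome 4, had log2 fold changes between -0.19 and -0.03 in 2.0 MAC against 0.7 MAC, between -0.06 and 0.06 in 0.7 MAC against CTRL, and between -0.15 and 0.01 in 2.0 MAC against CTRL. The 4 genes of the Trem2, Tyrobp and Fc receptor complex lay between -0.38 and 0.19 in 2.0 MAC against 0.7 MAC and between -0.38 and 0.09 in 2.0 MAC against CTRL. Trem2 marked the lower end of the second range at -0.38 (SE 0.20, adjusted p = 0.273), with all 2.0 MAC libraries below all CTRL libraries. Among the membrane genes shared by leukocytes (Laptm5, Ptprc and Cd53), Ptprc, which encodes CD45, had a log2 fold change of -0.43 in 2.0 MAC against 0.7 MAC (SE 0.20, adjusted p = 0.171). Fcrls, a secreted Fc receptor-like protein of mouse microglia, had -0.40 in 2.0 MAC against 0.7 MAC (SE 0.20, adjusted p = 0.208) and -0.46 in 2.0 MAC against CTRL (SE 0.20, adjusted p = 0.178), while Aif1 (Iba1) and Olfml3 did not pass either. Ctss and Cd68 of the lysosome lay between 0.06 and 0.11 in 2.0 MAC against 0.7 MAC, between -0.29 and -0.03 in 0.7 MAC against CTRL, and between -0.23 and 0.08 in 2.0 MAC against CTRL. The border macrophage receptors Mrc1 and Cd163 lay between -0.08 and 0.11 over the 3 comparisons.

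How the reads were counted mattered for the purine receptors. Exon-based reads leave out most reads that fit more than 1 gene, and 4 of the 30 genes kept under 30% of their exon reads, as did 13.8% of all genes with over 20 such reads. P2ry12 kept 7.89% and P2ry13 3.57%, and the exons of both lie wholly within Med12l, which runs on the opposite strand. Gpr34, a lysophospholipid receptor of microglia, kept 9.9% and lies within Cask on the opposite strand. Irf8 kept 27.7% and lies within the readthrough gene Gm20388 on the same strand. The other 26 kept over 93%. No source used here states if the counting used the strand of the reads, and without it reads of a gene and of its antisense partner cannot be told apart.

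**Figure D4:**
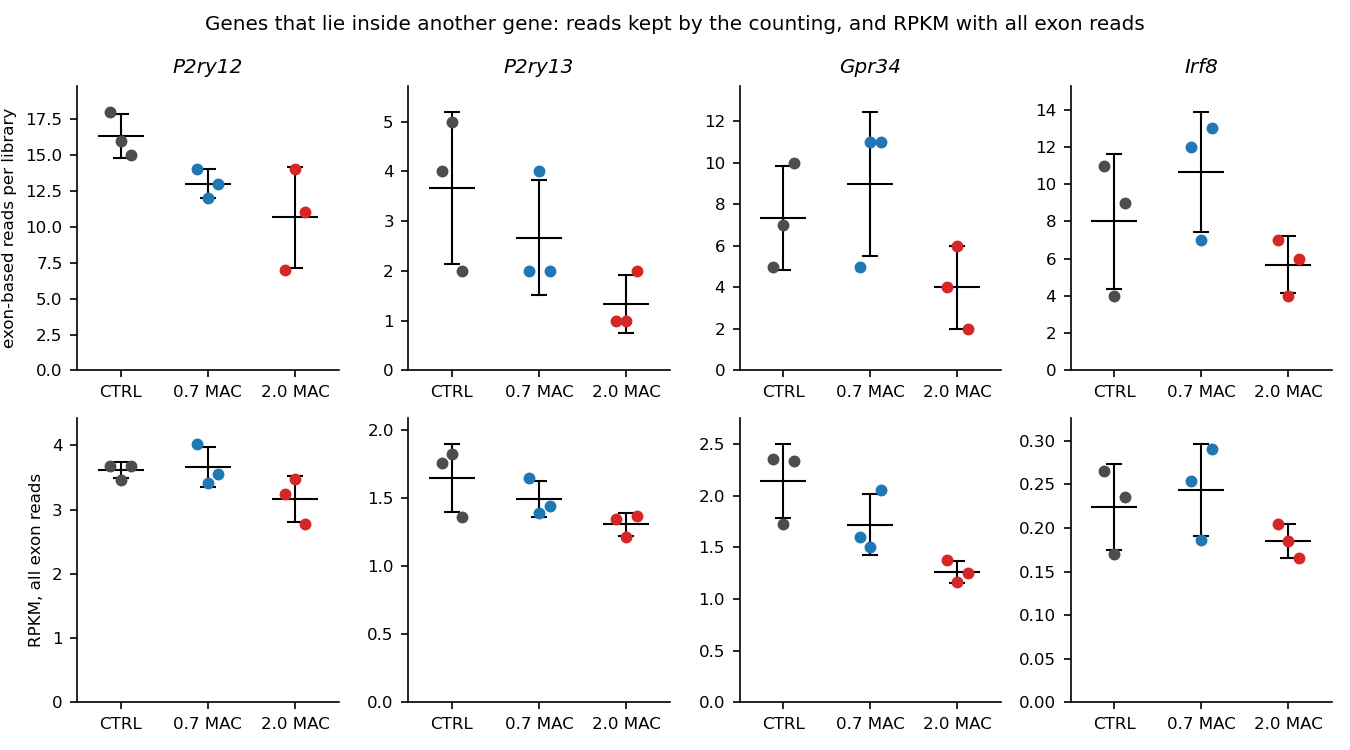
Exon-based reads (upper row) and RPKM with all exon reads (lower row) of P2ry12, P2ry13, Gpr34 and Irf8 in each library, with the mean and SD of each group. Gpr34 had 2 to 11 exon-based reads per library, and in RPKM its 2.0 MAC libraries lay below all others.

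With all exon reads counted, a choice made after the data were seen, Gpr34 could be tested and fell. It had 92, 69 and 97 exon reads in CTRL libraries, 71, 60 and 86 in 0.7 MAC libraries, and 44, 43 and 54 in 2.0 MAC libraries. The 2.0 MAC libraries lay below every other library. Its level was 1.27 ± 0.106 RPKM in 2.0 MAC libraries and 2.14 ± 0.361 RPKM in CTRL libraries (SD, n = 3 each), and the log2 fold change in 2.0 MAC against CTRL was -0.84 (SE 0.18, adjusted p = 0.00864 over 15499 genes, of which 5.76% fell). Relative to 0.7 MAC it was -0.54 in 2.0 MAC (SE 0.18, adjusted p = 0.061). P2ry12, at 7 to 18 exon-based reads and a log2 fold change of -0.58 in 2.0 MAC against CTRL (SE 0.31, adjusted p = 0.278), had -0.27 with all exon reads (SE 0.10, adjusted p = 0.122), and -0.31 in 2.0 MAC against 0.7 MAC (SE 0.10, adjusted p = 0.0545). P2ry13 had -0.41 with all exon reads in 2.0 MAC against CTRL (SE 0.15, adjusted p = 0.13). Cx3cr1, Sall1 and Gpr34 were the 3 genes called lower in 2.0 MAC against CTRL in this count. In exon-based reads, Itgam_1, which kept 43.2% of its exon reads beside the overlapping same-strand gene Gm49368, had 5.56, 4.20 and 7.04 normalized CPM in 2.0 MAC libraries, against 8.91, 6.85 and 10.6 CPM in 0.7 MAC libraries, and a log2 fold change of -0.64 (SE 0.22, adjusted p = 0.0597). This exon-based difference passed without 2.0 MAC 3 (adjusted p = 0.0287) and without 0.7 MAC 2 (adjusted p = 0.0255), and with all exon reads it was -0.38 (SE 0.13, adjusted p = 0.0765).

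Counts over introns and exons gave more lower genes in 2.0 MAC against CTRL. Total gene reads called 5 of 30 tested genes lower (Cd163, Csf1r, Gpr34, Ly86 and Sall1, where 6.53% of all genes fell), and unique gene reads called 6 of 28 (Cd163, Csf1r, Cx3cr1, Ly86, Sall1 and Siglech, where 7.41% fell). Intron reads made up a median of 19.6% of the gene reads of the 30 genes, and the highest shares were those of Ly86 (80.3%) and Cd163 (80.1%). Cd163 had 66 exon-based and 186 intron reads in the 2.0 MAC libraries together, against 63 exon-based and 343 intron reads in the CTRL libraries. Ly86 had 95 exon-based and 293 intron reads in 2.0 MAC libraries, against 105 exon-based and 447 intron reads in CTRL libraries. For both genes the difference lay in the intron reads. With total gene reads the log2 fold change of Cd163 was -0.62 (SE 0.15, adjusted p = 0.0219), beside 0.10 with exon-based reads (adjusted p = 0.898), and that of Ly86 was -0.44 (SE 0.10, adjusted p = 0.0199).

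A second list held further genes of homeostatic microglia, 39 of them tested. In 2.0 MAC against 0.7 MAC 1 rose (5.98% of all genes did) and 2 fell (8.73% of all genes), 0 changed in 0.7 MAC against CTRL (0.884% and 0.743% of all genes), and 0 rose and 3 fell in 2.0 MAC against CTRL (3.36% and 6.42% of all genes), with medians of -0.07, -0.05 and -0.12. These counts were near the shares over all genes or below them. Dock8, which organizes actin in immune cells, had a mean of 6.56 ± 0.786 CPM in 2.0 MAC and 11.1 ± 1.36 CPM in CTRL libraries (SD, n = 3 each), a log2 fold change of -0.75 (adjusted p = 0.00943). Slco2b1, a transporter, fell by 0.56 on the log2 scale (adjusted p = 0.0156), a call lost without 2.0 MAC 1, 2.0 MAC 2 or CTRL 3 (adjusted p = 0.0657, 0.0828 and 0.0603). Coro1a, an actin-binding protein of leukocytes, fell by 0.49 (adjusted p = 0.0417), a call lost without any 1 of the 2.0 MAC libraries, CTRL 1 or CTRL 3 (adjusted p up to 0.234). Coro1a also fell in 2.0 MAC against 0.7 MAC by 0.54 (adjusted p = 0.0187), a call lost without 2.0 MAC 1, 2.0 MAC 2 or 0.7 MAC 3 (adjusted p up to 0.0855). Hk2, a hexokinase, fell there by 0.63 (adjusted p = 0.0489), a call lost without any 1 of the 9 libraries (adjusted p up to 0.198). Gas6, a ligand of phagocytic receptors, rose there by 0.26 (adjusted p = 0.0179), a call lost without 2.0 MAC 2 or 0.7 MAC 2 (adjusted p = 0.0963 and 0.0676). With total gene reads none of these calls of Coro1a, Hk2 and Gas6 passed (adjusted p between 0.058 and 0.164).

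Several ligands of microglial receptors changed. Of 13 tested ligands and partners, 4 rose and 4 fell in 2.0 MAC against 0.7 MAC (5.98% and 8.73% of all genes did), 0 rose and 1 fell in 0.7 MAC against CTRL (0.884% and 0.743%), and 1 rose and 3 fell in 2.0 MAC against CTRL (3.36% and 6.42%). Cx3cl1, the ligand of Cx3cr1, had a mean of 214 ± 7.81 CPM in 2.0 MAC libraries, against 297 ± 29.8 CPM in 0.7 MAC libraries (SD, n = 3 each), a log2 fold change of -0.48 (adjusted p = 0.000919). Against CTRL it was -0.52 in 2.0 MAC (adjusted p = 0.000689). Sirpa, which receives the signal of CD47, fell by 0.51 in 2.0 MAC against 0.7 MAC (adjusted p = 5.77e-05) and by 0.38 in 2.0 MAC against CTRL (adjusted p = 0.00122). Csf1, a ligand of Csf1r, had 36.4 ± 1.08 CPM in 2.0 MAC libraries, against 26.7 ± 1.51 CPM in 0.7 MAC libraries, a log2 fold change of 0.45 (adjusted p = 0.00145). In 0.7 MAC against CTRL Csf1 fell by 0.39 (adjusted p = 0.0281), a call lost without 0.7 MAC 1, 0.7 MAC 2, CTRL 2 or CTRL 3 (adjusted p up to 0.108). Il34, the other ligand of Csf1r, fell by 0.51 in 2.0 MAC against CTRL (adjusted p = 0.0418), a call lost without any 1 of the 2.0 MAC libraries, 0.7 MAC 1, CTRL 1 or CTRL 3 (adjusted p up to 0.207). For Il34 the value was -0.18 with total gene reads (adjusted p = 0.264) and -0.16 with unique gene reads (adjusted p = 0.313), and DESeq2 did not call it (adjusted p = 0.0968). C3, the complement component downstream of C1q, rose by 0.84 in 2.0 MAC against 0.7 MAC (adjusted p = 0.0143), a call lost without 2.0 MAC 3 or 0.7 MAC 3 (adjusted p = 0.0673 and 0.0629). Apoe, a ligand of Trem2, rose by 0.31 in 2.0 MAC against CTRL (adjusted p = 0.00694).

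Genes of microglial activation showed no common direction. In the pathway of Tlr2, 0 of 16 tested genes changed in 2.0 MAC against 0.7 MAC (5.98% of all genes rose and 8.73% fell), the comparison in which Tlr2 itself rose. Against CTRL, 2 rose in 2.0 MAC (3.36% of all genes) and 1 in 0.7 MAC (0.884% of all genes), and 0 fell. Nfkbia, the inhibitor of NF-kB and itself an NF-kB target, had 27.4 ± 3.10 CPM in 2.0 MAC and 17.5 ± 2.41 CPM in CTRL libraries (SD, n = 3 each), a log2 fold change of 0.64 (adjusted p = 0.00188). It was 0.50 in 0.7 MAC against CTRL (adjusted p = 0.0407). The second call was lost without 2.0 MAC 2, any 1 of the CTRL libraries, 0.7 MAC 1 or 0.7 MAC 2 (adjusted p up to 0.147). Nfkb2 rose by 0.70 in 2.0 MAC against CTRL (adjusted p = 0.0436), a call lost without any 1 of the 2.0 MAC or CTRL libraries or 0.7 MAC 1 (adjusted p up to 0.147). DESeq2 called neither Nfkb2 in 2.0 MAC against CTRL (adjusted p = 0.203) nor Nfkbia in 0.7 MAC against CTRL (adjusted p = 0.0706). Of 24 genes of inflammatory activation, such as cytokines, 9 had enough reads. In 2.0 MAC against 0.7 MAC 0 rose and 1 fell (5.98% and 8.73% of all genes), and in 2.0 MAC against CTRL 1 rose and 1 fell (3.36% and 6.42%). The 1 was Ptgs2 (cyclooxygenase-2), which cortical neurons also express, at 2.70 ± 0.659 CPM in 2.0 MAC libraries, against 8.76 ± 0.682 CPM in 0.7 MAC libraries, a log2 fold change of -1.67 (adjusted p = 0.000375). Ptgs2 also fell in 2.0 MAC against CTRL by 1.16 (adjusted p = 0.0139), a call lost without 2.0 MAC 1, 2.0 MAC 2 or CTRL 1 (adjusted p up to 0.0827), and Icam1, an adhesion molecule that endothelium also expresses, rose by 1.02 (adjusted p = 0.0155), a call lost without 2.0 MAC 3, CTRL 1 or CTRL 2 (adjusted p up to 0.081).

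Of 16 tested genes of disease-associated microglia, 2 rose and 1 fell in 2.0 MAC against 0.7 MAC (5.98% and 8.73% of all genes), 0 changed in 0.7 MAC against CTRL (0.884% and 0.743%), and 1 rose and 1 fell in 2.0 MAC against CTRL (3.36% and 6.42%). Of 9 tested further genes of Trem2, Tyrobp and Fc receptor signaling, 1 rose and 0 fell in 2.0 MAC against 0.7 MAC (5.98% and 8.73% of all genes). In the list 0 changed in 0.7 MAC against CTRL (0.884% and 0.743%) and in 2.0 MAC against CTRL (3.36% and 6.42%). The gene that rose was Vav3, at a log2 fold change of 0.35 (adjusted p = 0.0095), a call lost without 2.0 MAC 1 (adjusted p = 0.0555) and with total gene reads (0.24, adjusted p = 0.071). Lpl, a lipase that neurons also express, fell by 1.48 in 2.0 MAC against 0.7 MAC (adjusted p = 3.5e-05) and by 1.12 in 2.0 MAC against CTRL (adjusted p = 0.000768). Spp1 (osteopontin) rose by 0.53 in 2.0 MAC against 0.7 MAC (adjusted p = 0.000991), and Fth1, the ferritin heavy chain that oligodendrocytes hold in large amount, rose by 0.37 there (adjusted p = 0.00223) and by 0.35 against CTRL (adjusted p = 0.00593). Of 6 tested further genes of border macrophages, 2 rose in 2.0 MAC against 0.7 MAC (5.98% of all genes did). Cd38, which astrocytes also express, rose by 0.55 (adjusted p = 0.00413), and the other was Ednrb, the endothelin B receptor that astrocytes also express. Cd38 rose by 0.46 in 2.0 MAC against CTRL too (adjusted p = 0.0196), a call lost without 2.0 MAC 2, CTRL 1 or CTRL 3 (adjusted p up to 0.0882). The defining border genes Pf4, Lyve1 and Ms4a7 had 25, 47 and 30 reads over the 9 libraries.

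Most markers of blood cells had few reads, with exceptions. Of 17 monocyte and neutrophil genes 3 were tested. In 2.0 MAC against 0.7 MAC 0 changed (5.98% of all genes rose and 8.73% fell), with log2 fold changes between -2.30 and 0.17. Nor did any change in 0.7 MAC against CTRL (0.884% and 0.743%) or in 2.0 MAC against CTRL (3.36% and 6.42%). Fn1 (6795 reads over the 9 libraries, a gene of vessels and other cells as well), Csf3r (223) and S100a9 (65) had the most reads. Ly6g had 0 reads and Ccr2 had 31. The summed level of the list, most of it from Fn1, ran between 117 and 127 CPM in CTRL libraries, between 115 and 142 CPM in 0.7 MAC libraries and between 119 and 140 CPM in 2.0 MAC libraries. Of 14 lymphocyte genes, Cd3d, Cd3g, Ms4a1 and Gzma had 0 reads in all libraries, Lck had 79 and Cd4 had 290. Cd4, the 1 tested, fell by 1.91 in 2.0 MAC against 0.7 MAC (adjusted p = 0.00204) and by 2.27 in 2.0 MAC against CTRL (adjusted p = 0.000627), at 1.59 ± 0.468 CPM in 2.0 MAC, 5.93 ± 2.62 CPM in 0.7 MAC and 7.49 ± 1.71 CPM in CTRL libraries (SD, n = 3 each). The summed level of the lymphocyte list ran between 8.97 and 10.8 CPM in CTRL libraries, between 5.71 and 11.9 CPM in 0.7 MAC libraries and between 3.59 and 4.64 CPM in 2.0 MAC libraries. Most reads of this list were those of Cd4, so the sum mainly follows that 1 gene and is no measure of lymphocytes as a whole. Of 3 tested red cell genes, Hba-a2, which shares nearly its whole sequence with Hba-a1 so that its reads are uncertain, fell by 1.61 in 2.0 MAC against 0.7 MAC (adjusted p = 0.0498), a call lost without any 1 library but 2.0 MAC 3 or 0.7 MAC 3 (adjusted p up to 0.211). It rose by 2.58 in 0.7 MAC against CTRL (adjusted p = 0.0396), a call lost without 2.0 MAC 1, 0.7 MAC 1, 0.7 MAC 2 or any 1 of the CTRL libraries (adjusted p up to 0.166), and DESeq2 made neither call. Hba-a2 was the 1 gene of the 3 called in these 2 comparisons. Of all genes 8.73% fell in the first and 0.884% rose in the second. The summed level of the 5 red cell genes ran between 3.46 and 7.86 CPM in CTRL libraries, between 5.67 and 37.9 CPM in 0.7 MAC libraries and between 5.19 and 22.4 CPM in 2.0 MAC libraries.

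The mean summed level of the 30 genes was lowest in 2.0 MAC, and lists of other cell types and of brain regions also differed between the groups. The sum was 411, 375 and 392 CPM in CTRL libraries, 355, 345 and 379 CPM in 0.7 MAC libraries, and 346, 343 and 337 CPM in 2.0 MAC libraries. The 2.0 MAC and CTRL sums did not overlap, while 2.0 MAC and 0.7 MAC did. Csf1r (mean 81.9 CPM in CTRL and 70.3 CPM in 2.0 MAC libraries), Cx3cr1 (40.6 and 27.5 CPM) and Sall1 (32.9 and 22.7 CPM) made up most of the difference from CTRL. The sum of the second list of homeostatic microglia ran between 945 and 956 CPM in CTRL and between 887 and 989 CPM in 0.7 MAC libraries. In 2.0 MAC libraries it ran between 962 and 987 CPM, so this sum did not lie lower there. A sum mainly follows the most abundant genes of a list. By gene, the median log2 fold change in 2.0 MAC against CTRL was -0.12 in the second list and -0.12 in the 27 tested genes. Sums of 3 other lists of microglial or macrophage genes were higher in every 2.0 MAC library than in every other library. The same held for the lists of the hypothalamus, the thalamus (1226 to 1330 CPM in 2.0 MAC and up to 1153 CPM elsewhere) and the hindbrain (310 to 349 CPM and up to 283 CPM). Disease-associated microglia summed to 2128 to 2367 CPM in CTRL libraries, 2134 to 2262 CPM in 0.7 MAC libraries and 2497 to 2675 CPM in 2.0 MAC libraries. Of its 16 tested genes 2 rose and 1 fell in 2.0 MAC against 0.7 MAC (5.98% and 8.73% of all genes). Against CTRL 1 rose and 1 fell in 2.0 MAC (3.36% and 6.42%). The list holds Fth1, which oligodendrocytes also hold, so its sum is no measure of microglia alone. The further border macrophage genes summed to 162 to 178 CPM in CTRL libraries, 146 to 162 CPM in 0.7 MAC libraries and 186 to 192 CPM in 2.0 MAC libraries. Most reads of that list were those of Ednrb (5580 over the 9 libraries) and Cd38 (1060), which astrocytes also express. The Trem2, Tyrobp and Fc receptor signaling genes summed to 73.2 to 81.1 CPM in CTRL libraries, 69.7 to 77.7 CPM in 0.7 MAC libraries and 83.3 to 93.5 CPM in 2.0 MAC libraries. Of the 9 tested, 1 rose and 0 fell in 2.0 MAC against 0.7 MAC (5.98% and 8.73% of all genes). Against CTRL 0 changed in 2.0 MAC (3.36% and 6.42%). Genes of cerebral cortex and hippocampus summed to 850 to 1280 CPM in CTRL libraries, 1159 to 1427 CPM in 0.7 MAC libraries and 570 to 661 CPM in 2.0 MAC libraries. Of these, 11 of 14 fell in 2.0 MAC against 0.7 MAC (8.73% of all genes) and 6 of 14 in 2.0 MAC against CTRL (6.42%). Genes of the striatum summed to 1679 to 2057, 1329 to 2053 and 752 to 867 CPM in the same order of groups. Of these, 13 of 14 were lower in 2.0 MAC against 0.7 MAC (8.73% of all genes) and 13 of 14 against CTRL (6.42%). Genes of the hypothalamus, the labelled tissue, were present and summed to 88.3 to 107 CPM in CTRL libraries, 74.2 to 88.1 CPM in 0.7 MAC libraries and 130 to 142 CPM in 2.0 MAC libraries. Of the oligodendrocyte genes 14 of 15 rose in 2.0 MAC against 0.7 MAC (5.98% of all genes) and 3 of 15 in 2.0 MAC against CTRL (3.36%). Their sums were 9549 to 10952 CPM in CTRL libraries, 7697 to 9084 CPM in 0.7 MAC libraries and 10396 to 12521 CPM in 2.0 MAC libraries. Of 15 astrocyte genes 10 rose and 2 fell in 2.0 MAC against 0.7 MAC (5.98% and 8.73% of all genes). In 2.0 MAC against CTRL 5 rose and 1 fell (3.36% and 6.42%). The astrocyte sums were 9122 to 9573 CPM in CTRL libraries, 8708 to 9888 CPM in 0.7 MAC libraries and 8733 to 9170 CPM in 2.0 MAC libraries. Neuron genes summed to 8548 to 9570 CPM in CTRL and 8693 to 9774 CPM in 0.7 MAC libraries. In 2.0 MAC libraries the neuron sums were 7483 to 7668 CPM, below every other library. Of 14 neuron genes 3 rose and 4 fell in 2.0 MAC against 0.7 MAC (5.98% and 8.73% of all genes). Against CTRL 1 rose and 5 fell in 2.0 MAC (3.36% and 6.42%). No gene of the cortex, striatum or oligodendrocyte lists was at 0 in any library. The part of these shifts in region and cell type in the values of Cx3cr1, Sall1, Gpr34, Tlr2 and the ligands was not tested.

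**Figure D5:**
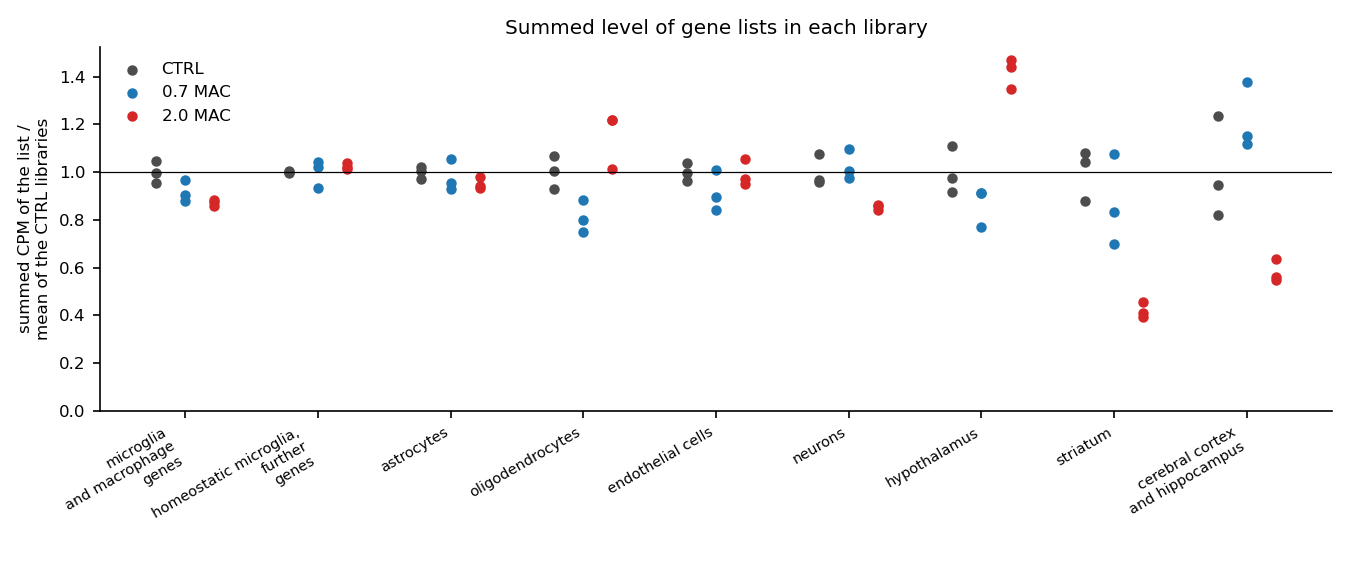
Summed CPM of 9 gene lists in each library, divided by the mean of the CTRL libraries, with 1 point per library and the groups in gray (CTRL), blue (0.7 MAC) and red (2.0 MAC). The microglia and macrophage genes lay lowest on average in 2.0 MAC by a small margin and overlapped 0.7 MAC. The 2.0 MAC libraries stood apart for the neurons, the striatum, the cortex and hippocampus, and the hypothalamus.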

How the data were processed

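The authors used CLC Genomics Workbench to map strand-specific, rRNA-depleted reads of 9 libraries and to count reads by gene. GRCm38 and mm10 are the builds in the submitters' processing notes, and the release of the annotation is not stated in them. The authors deposited whole-number read counts per gene (exon-based, total exon, unique gene, total gene and intron reads) and RPKM, which uses total exon reads. The table also holds the authors' own fold changes and p-values, which were not used, and 138 of its 198 columns of per-sample values were left out. Genes were found by symbol, and 0 rows lacked a name.

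Exon-based counts were tested with edgeR 4.0.16 in R 4.3.3 (quasi-likelihood test, all 9 libraries in 1 fit, TMM scaling, filterByExpr at a minimum count of 10, Benjamini-Hochberg adjustment over 14140 genes), and the script was tested on simulated data. The standard error is the log2 fold change divided by the square root of the F statistic. Depth was 5321491 to 7178568 exon-based reads per library, and a gene was tested where at least 3 libraries reached a level worth 10 reads at the median depth. No pair of libraries of 1 group agreed within sampling noise. The alternatives were DESeq2 1.42.0, limma 3.58.1 on log2(RPKM + 0.1) and log2(RPKM + 1), other scaling, filters and counts, a replicate block, and each library left out. Values in every library were printed for genes called in at least 1 comparison and for the 5 highest in RPKM, with further genes named for their values. From each further list at most the genes with the smallest adjusted p were named. The genes, lists and tests were chosen with earlier results of these data known. No protein sequences were used here.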

Additional observations from a re-analysis of the deposited data

How the results depend on the processing

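Over 22 alternatives, the counts of higher genes in 0.7 MAC against CTRL and in 2.0 MAC against CTRL stayed at 0. The count of higher genes in 2.0 MAC against 0.7 MAC (1, Tlr2) was 0 with DESeq2 (which gave Tlr2 no adjusted p), at a minimum count of 30 (which left Tlr2 untested), with total gene reads, unique gene reads and limma on log2(RPKM + 0.1), and 0 to 1 with each library left out. The count of lower genes there (0) was 0 to 1 with each library left out. The count of lower genes in 0.7 MAC against CTRL (1) was 0 with limma on log2(RPKM + 0.1) and at a fold of at least 2, and 0 to 1 with each library left out. The count of lower genes in 2.0 MAC against CTRL (2) was 5 with total gene reads, 6 with unique gene reads, 0 with limma on log2(RPKM + 0.1), 1 with limma on log2(RPKM + 1), 0 at a fold of at least 2, and 1 to 3 with each library left out. The cause was not tested, except that fewer libraries enter the fit when 1 is left out. Of the log2 fold changes of 57 single results, 5 of 1180 alternative values changed sign. In 2.0 MAC against CTRL, Ly86 ran between -0.28 and 0.11 with each library left out and was positive without 2.0 MAC 3 (0.11) and CTRL 3 (0.05). Cd163 was -0.62 with total gene reads and -0.62 with unique gene reads, and ran between -0.094 (without CTRL 1) and 0.40 with each library left out. A further 165 values of called genes lost the call and 14 values gained 1.

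Replicate numbers did not pair the libraries: the 9 correlations between libraries of the same number, as deviations from their group means, ran between -0.294 and 0.00668. With the replicate block the count of higher genes in 2.0 MAC against 0.7 MAC was 0 in place of 1, and the log2 fold change of Tlr2 came to 1.24 with the block (adjusted p = 0.0598). Depth limits the genes with few reads: Tlr2 had 112 exon-based reads over the 9 libraries, P2ry12 120, Gpr34 61 and P2ry13 23. Counts with total exon reads and with robust dispersions were added after the data were seen.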
